A study of Mus musculus with 12 samples.

Results

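Among 54146 genes counted in whole retinas of 12 mice, 79 protein-coding genes had their lowest level 4 d after deletion of Otx2 in photoreceptors (PRs), below every other library by a set margin. Levels are given as CPM, the counts on a gene divided by all counts on genes of that library and multiplied by 1000000. A gene was taken when its mean CPM over the P30 control mice was at least 0.5, when it was not on chromosome Y, and when its highest CPM in the 3 P34 cKO libraries was at most 0.7 times its lowest CPM in the 9 libraries of the other groups. Of 14128 protein-coding genes that met the first conditions, 0.559% met the last. A further 4 genes (Chrng, BC048679, Zfp970 and Gm14403) met the inequality with 0 on both sides, since they had no counts at P34 and none in at least 1 other library, and they were left aside. The P34 values chose these genes, so every P34 difference below is a description, and calls at P34 are given as counts from which nothing is read. All 79 genes also passed the filter on low counts that set the 18628 genes tested in the fit.

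The retina meets the ciliary body at its outer edge, where the neural layer continues as an epithelium. That ciliary epithelium is known for secreting the aqueous humor, for making proteins of the vitreous and of the fibers that hold the lens, and for ion transport across a sheet sealed by junctions. Extracellular matrix in the eye is built from collagens, from glycoproteins such as fibrillins and fibulins, and from proteoglycans, whose protein cores carry sugar chains. OTX2 is a homeodomain transcription factor of PRs, bipolar cells and the retinal pigmented epithelium (RPE), and OTX1 is its close relative.

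The cKO mice carried the Crx-CreERT2 transgene, a tamoxifen-dependent Cre under the Crx promoter that acts in PRs, and Otx2 flox/flox alleles on a 129/SV background. They received a single injection of tamoxifen at P30 and were killed 2, 4 or 8 d later, at P32 (mice 4 to 6), P34 (mice 7 to 9) and P38 (mice 10 to 12). The P30 mice 1 to 3 are labelled as controls. The study's methods set control mice apart from injected ones, while the labels of the P30 samples carry the same injection protocol as those of the cKO mice. The alleles of these P30 mice are not given in the sources used here, and mice of both sexes were used. Effects of the deletion, of 2 to 8 d of age and of tamoxifen, where the controls did not receive it, cannot be told apart here. Each mouse gave 1 library of its whole retinas, so the spread between libraries is the spread between mice, and in whole tissue fewer cells of a type and less RNA per cell cannot be told apart.

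Counts on genes ranged from 29701483 to 60145034 per library, so that 3 counts stood at 0.0499 to 0.101 CPM. Otx2, the targeted gene (ENSMUSG00000021848, chromosome 14 from 48657677 to 48673819, minus strand of GRCm38), had 309, 344 and 301 CPM (P30), 336, 353 and 387 (P32), 311, 332 and 375 (P34) and 339, 307 and 366 (P38), in the order of the mouse numbers, which holds for all values below. The cKO and control ranges of Otx2 overlapped, and counts over the whole transcript do not separate deleted from intact alleles. Summed markers of rods, the PRs of dim light, stood at 65498 to 67908 CPM at P30 and 70672 to 89933 CPM at P34, and those of bipolar cells at 1355 to 1578 and 1284 to 1386 CPM. Every library thus held the defining markers of retina. The expression of lens markers differed most between libraries, from 265 to 47717 CPM, and P30 mouse 2 and P32 mouse 6 lay with the P34 mice at its low end. P30 mouse 1 stood apart from the other controls in markers of smooth muscle (31.1 CPM, against 190.0 and 189 in mice 2 and 3) and of melanin synthesis (125 CPM, against 867 and 646).

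By the choice of genes, all 79 were low in each of the P34 mice. Relative to each gene's mean over the 9 other libraries, the median gene stood at 15.05, 10.3 and 13.2% in P34 mice 7, 8 and 9. In the other mice the median gene stood at 111, 133 and 122% at P30, 108, 120.2 and 49.7% at P32, and 82.9, 96.1 and 56.7% at P38. P32 mouse 6 and P38 mouse 12 were therefore the lowest of the 9. P32 mouse 6 held the lowest of the 9 values for 46 of the 79 genes and P38 mouse 12 for 21, while P38 mouse 10 held it for 6 and the P30 mice for 1 in all. By gene, the P34 mean was 0 to 44.4% of the mean of the 9, with a median of 12.7%, and it was at most 20% for 56 genes.

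**Figure D1:**
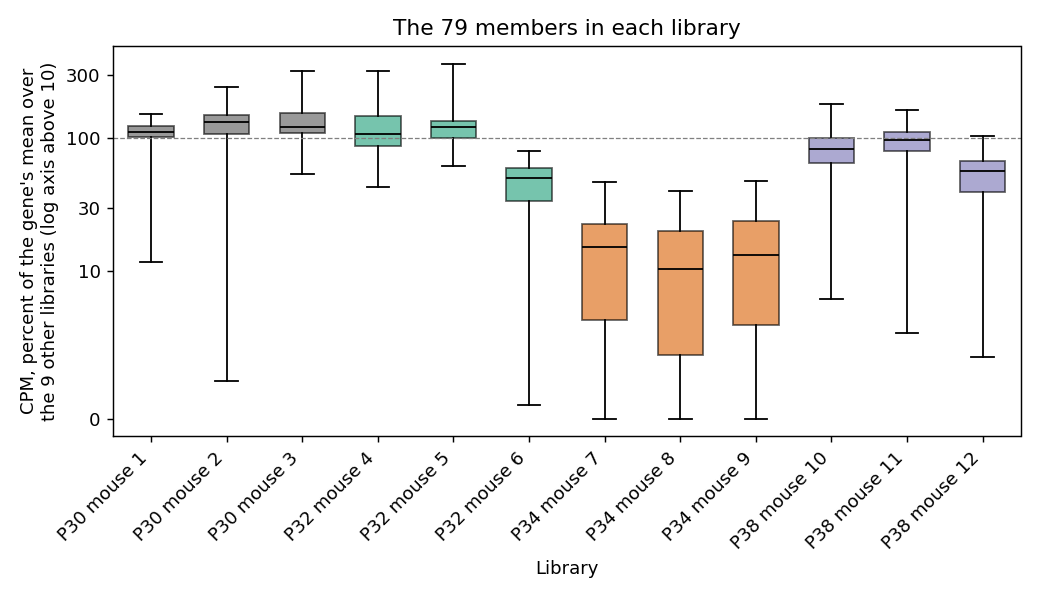
Boxes (quartiles and median) and whiskers (full range) of the CPM of the 79 genes in each library, as a percentage of each gene's mean over the 9 libraries of P30, P32 and P38, on a log axis above 10. The P34 medians lie at 10.3 to 15.05% by the choice of genes, and among the others P32 mouse 6 (49.7%) and P38 mouse 12 (56.7%) are lowest.

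Summed over all 79 genes, the level was 168 to 183 CPM at P34, 548 CPM in P32 mouse 6 and 667 CPM in P38 mouse 12. The remaining 7 libraries held 1172 to 2009.6 CPM, so that these 2 libraries lay between the P34 mice and the rest. Within the 9 libraries, the highest value of a gene was 1.85 to 180.1 times its lowest (median 3.33). This spread was under 4-fold for 46 genes and at least 10-fold for 11 genes, among them Crygf, Kcne1, Msx2, Cryga, Glycam1, Gstm2, Wif1, Edn3, Podn and Msx1. Those 11 genes were low in some mice of other ages as well. P32 mouse 6 held under 10% of the gene's highest value for 10 of them, P38 mouse 12 for 9 and P30 mouse 2 for 6. P38 mouse 11 did so for 3, P38 mouse 10 for 2 and P30 mouse 1 for 2. Crygf and Cryga were that low in every P38 mouse.

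The same rule found few genes when another group took the place of P34. No gene was low only at P30 or only at P38, and 1 gene was low only at P32. The mirrored rule, with the lowest value of the group at or above the highest of the others divided by 0.7, found 0 genes at P34, 0 at P38, 1 at P32 and 2 at P30. The floor on the P30 mean was kept for every group, so these counts do not come from equal rules. At the limit of the rule, the 5 genes just inside were Cdca7 (ratio 0.674), Mgst1 (0.688), Angptl2 (0.690), Edn3 (0.694) and Rapsn (0.697), and the 5 just outside were Clec14a (0.701), Lim2 (0.706), Idh2 (0.707), Rab38 (0.715) and Abi3bp (0.717).

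**Figure D2:**
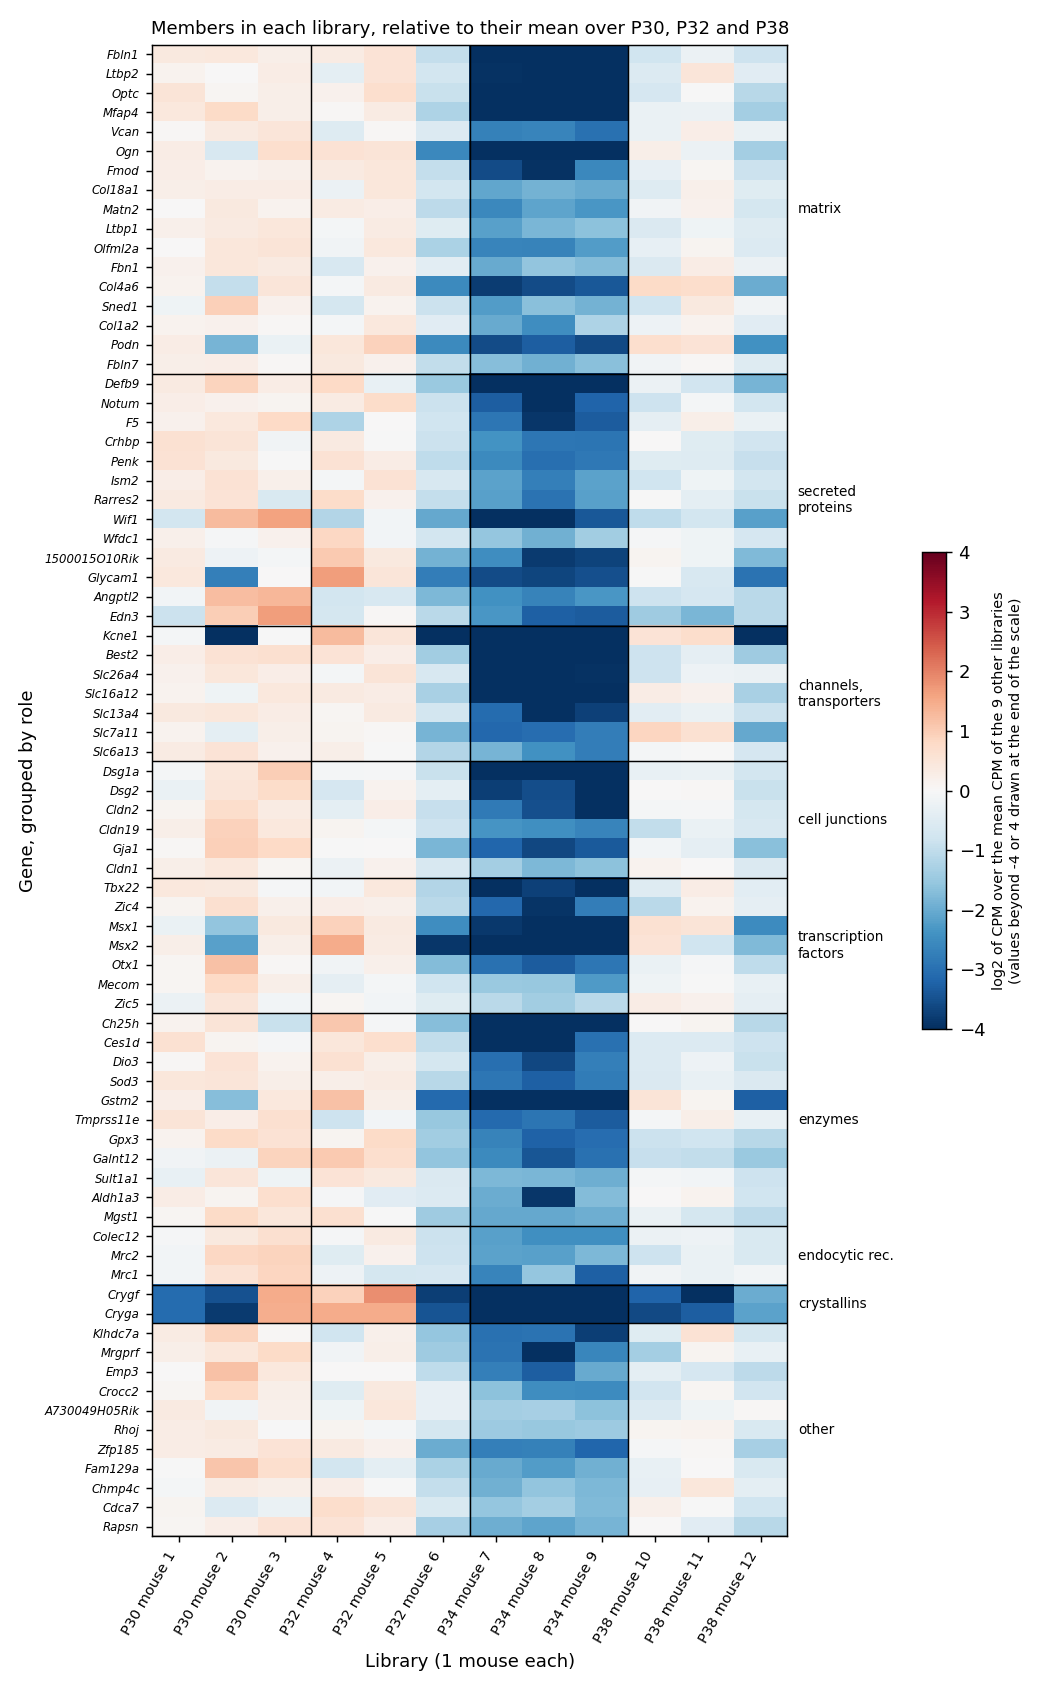
Level of the genes (rows, grouped by role, without 2 that are not reported by name) in each of the 12 libraries (columns), as log2 of the CPM over the gene's mean CPM in the 9 libraries of P30, P32 and P38, with values beyond -4 or 4 drawn at the end of the scale. The P34 columns are low in every row by the choice of genes, P32 mouse 6 and P38 mouse 12 are paler blue across most rows, and the crystallins are high only in P30 mouse 3 and P32 mice 4 and 5.

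The largest group of these genes encodes extracellular matrix, with 17 genes whose P34 mean was 3.49 to 29.6% of the mean of the 9 (median 14.6%). Optc (ENSMUSG00000010311, chromosome 1 from 133897199 to 133907999, minus strand of GRCm38, as are all positions given here) encodes opticin, a small proteoglycan of the vitreous made by the ciliary epithelium. It had 104, 77.3 and 86.5 CPM (P30), 82.7, 117 and 39.3 (P32), 3.85, 2.48 and 2.63 (P34) and 46.5, 72.5 and 34.2 (P38). The lowest values outside P34 were those of P32 mouse 6 and P38 mouse 12, and the highest P34 value was 0.113 times the lower of these. Fmod (ENSMUSG00000041559, chromosome 1 from 134037254 to 134048277, plus strand), a related proteoglycan that binds collagen fibrils, had 33.5, 30.3 and 31.5 CPM (P30), 35.4, 37.6 and 14.3 (P32), 2.33, 1.77 and 4.65 (P34) and 21.9, 29.2 and 15.3 (P38). Optc and Fmod lie 129255 bases apart, with another small proteoglycan gene, Prelp (ENSMUSG00000041577, chromosome 1 from 133910304 to 133921414, minus strand), between them. Prelp had 49.9, 57.2 and 46.1 CPM (P30), 35.2, 55.5 and 43.5 (P32), 28.3, 29.7 and 34.1 (P34) and 33.01, 46.1 and 35.3 (P38), and its highest P34 value exceeded its lowest P38 value, so it did not meet the rule. Ogn (ENSMUSG00000021390, chromosome 13 from 49608046 to 49624501, plus strand), another member of that proteoglycan family, had 31.7, 16.5 and 41 CPM (P30), 38.1, 36.7 and 4.24 (P32), 0.917, 0.982 and 1.31 (P34) and 29.8, 21.8 and 9.92 (P38). Ogn varied 9.68-fold over the 9 libraries, with P32 mouse 6 far below the other P32 mice. Podn, of the same family, varied 11.2-fold and had 4.91 CPM in P30 mouse 2, 3.06 in P32 mouse 6 and 3.37 in P38 mouse 12 against 1.48 to 1.84 at P34. Vcan (ENSMUSG00000021614, chromosome 13 from 89655312 to 89742509, minus strand), the large proteoglycan versican that binds hyaluronan in the vitreous, had 18.9, 23.4 and 25.5 CPM (P30), 12.8, 18.9 and 12.5 (P32), 2.78, 2.92 and 2.32 (P34) and 15.2, 22.1 and 15.1 (P38), and its 9 other values spread only 2.03-fold.

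The fibrillin microfibril, the scaffold of the fibers that suspend the lens, was represented by several of its parts. Fbn1 (ENSMUSG00000027204, chromosome 2 from 125300594 to 125507993, minus strand), which encodes fibrillin-1, had 58.03, 70.4 and 65.9 CPM (P30), 33.2, 57.7 and 38.5 (P32), 12.8, 17.5 and 15.7 (P34) and 34.4, 64.1 and 43.9 (P38). Its P34 mean was 29.6% of the mean of the 9, the highest share in this group with that of Fbln7 (29.6%). Ltbp2 (ENSMUSG00000002020, chromosome 12 from 84783212 to 84876532, minus strand), a latent TGF-beta binding protein that associates with fibrillin, had 25.7, 23.6 and 28.6 CPM (P30), 17.6, 33.8 and 13.8 (P32), 1.49, 1.18 and 1.45 (P34) and 15.7, 32.7 and 17.03 (P38). Ltbp1 (ENSMUSG00000001870, chromosome 17 from 75005568 to 75392512, plus strand), which holds latent TGF-beta in the matrix, had 22.03, 24.5 and 26.1 CPM (P30), 18.02, 23.96 and 13.5 (P32), 4.19, 5.33 and 6.09 (P34) and 12.6, 16.8 and 13.3 (P38). The P34 level of Ltbp2 was 5.93% of the mean of the 9 and that of Ltbp1 27.4%. Mfap4 (ENSMUSG00000042436, chromosome 11 from 61485431 to 61488900, plus strand), a microfibril-associated protein, had 31.2, 39.8 and 27.3 CPM (P30), 24.1, 29.7 and 9.96 (P32), 1.07, 0.638 and 0.741 (P34) and 19.7, 19.9 and 9.22 (P38). Fbln1 (ENSMUSG00000006369, chromosome 15 from 85205949 to 85286535, plus strand), which encodes fibulin-1 of elastic fibers and basement membranes, had 83.7, 85.9 and 75.8 CPM (P30), 80.0, 93.3 and 33.2 (P32), 3.54, 1.62 and 2.49 (P34) and 36.7, 54.5 and 36.4 (P38). Both stood under 5% of their mean over the other libraries, and their P38 values lay below all their P30 values. Sned1 (ENSMUSG00000047793, chromosome 1 from 93235841 to 93301065, plus strand), a matrix glycoprotein, had 50.8, 112 and 65.1 CPM (P30), 35.3, 63.6 and 31.8 (P32), 12.2, 18.1 and 15.7 (P34) and 33.2, 75.03 and 52.8 (P38), with P30 mouse 2 alone above 100 CPM. Matn2, which encodes matrilin-2, ranged from 2.28 to 3.12 CPM at P34 and from 6.55 to 17.7 CPM elsewhere. Olfml2a, an olfactomedin-like secreted protein, ranged from 1.57 to 2.12 and from 4.11 to 14.02 CPM.

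Collagens contributed 3 genes. Col18a1 (ENSMUSG00000001435, chromosome 10 from 77052178 to 77166548, minus strand), whose product is a basement membrane collagen and the source of endostatin, had 94.4, 97.4 and 99.3 CPM (P30), 67.4, 109 and 47.9 (P32), 19.1, 21.6 and 19.8 (P34) and 55.6, 92.6 and 57.5 (P38). Col1a2 (ENSMUSG00000029661, chromosome 6 from 4504814 to 4541544, plus strand), a chain of fibrillar collagen I, had 27.2, 27.6 and 25.2 CPM (P30), 23.3, 32.7 and 17.97 (P32), 5.997, 4.39 and 10.4 (P34) and 21.01, 27.1 and 17.6 (P38). Col4a6 (ENSMUSG00000031273, chromosome X from 141165403 to 141474076, minus strand), a chain of basement membrane collagen IV, had 33.3, 15.6 and 42.3 CPM (P30), 28.4, 39.1 and 5.16 (P32), 2.15, 2.55 and 2.86 (P34) and 50.8, 49.3 and 7.55 (P38). For Col18a1 and Col1a2 the 9 other libraries stayed within 2.28 and 1.85-fold of each other, while for Col4a6 P32 mouse 6 and P38 mouse 12 approached the P34 values. At P34 against P30, 61 of the 79 genes (77.2%) were called lower and 0 higher, against 123 (0.660%) and 0 (0%) of all genes tested, by edgeR's quasi-likelihood test. A call required a log2 fold change of 0.5 or more in either direction and a p, adjusted by the method of Benjamini and Hochberg, of 0.05 or less. Since the rule used this contrast, nothing is read from that count. Among the 42 collagen genes tested, 4 were called lower at P34 against P30 and 0 higher, with a median log2 fold change of -0.61 against -0.00134 for all genes tested. Of the 31 matrix glycoprotein genes tested 15 were called lower and 0 higher (median -1.77), and of 25 proteoglycan cores 6 and 0 (median -0.68). These counts, and those of further lists with chosen genes, include genes that the rule chose for their low P34 values, and they stand beside 0.660% lower over all genes tested. Of 26 genes that modify and cross-link collagen and elastin, 1 was called lower, 0 higher and 0 were chosen by the rule (median -0.63).

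Secreted signals and other soluble proteins made up 14 genes. Penk (ENSMUSG00000045573, chromosome 4 from 4133531 to 4138819, minus strand), the precursor of the enkephalin opioid peptides, had 134, 117 and 87.7 CPM (P30), 133, 109.7 and 44.1 (P32), 15.2, 11.02 and 12.2 (P34) and 63.2, 62.3 and 47.1 (P38). Crhbp (ENSMUSG00000021680, chromosome 13 from 95431371 to 95444924, minus strand), which encodes the binding protein of corticotropin-releasing hormone, had 36.5, 34.3 and 21.8 CPM (P30), 31.1, 24.1 and 13.4 (P32), 4.58, 3.26 and 3.198 (P34) and 24.5, 17.4 and 14.3 (P38). In both genes the P34 mice lay under 40% of every other mouse. Of 11 neuropeptide genes on the list, 4 were called lower at P34 against P30, with the chosen Penk and Crhbp on the list, and 0 higher (0.660% lower over all genes tested). A pair of Wnt inhibitors was present: Notum, an extracellular enzyme that removes the lipid of Wnt proteins, had 1.86, 1.74 and 1.67 CPM (P30), 1.94, 2.55 and 0.847 (P32), 0.157, 0.0491 and 0.168 (P34) and 0.873, 1.47 and 0.935 (P38). Wif1, which binds Wnt proteins, had 0.632, 2.56 and 3.23 CPM (P30), 0.469, 0.993 and 0.257 (P32), 0.0262, 0.0245 and 0.101 (P34) and 0.524, 0.632 and 0.234 (P38), and its P34 libraries held 1, 1 and 3 counts. Notum spread 3.01-fold over the 9 libraries and Wif1 13.8-fold, with P30 mice 2 and 3 far above the rest. Of 43 tested Wnt ligands, receptors and modulators, 4 were called lower at P34 and 0 higher (median -0.41), on a list that holds the chosen Notum and Wif1, against 0.660% lower over all genes tested. Edn3, the peptide endothelin-3, had 1.31, 4.72 and 7.66 CPM (P30), 1.47, 2.47 and 1.13 (P32), 0.471, 0.245 and 0.236 (P34) and 0.895, 0.679 and 1.135 (P38). Angptl2, an angiopoietin-like secreted protein, had 6.301, 16.1 and 17.2 CPM (P30), 4.13, 4.43 and 1.95 (P32), 1.28, 1.08 and 1.35 (P34) and 3.86, 4.26 and 3.24 (P38). Edn3 and Angptl2 were highest in P30 mice 2 and 3, and every cKO library lay under the lower of these 2 values. Among the remaining genes of the group, F5 (coagulation factor V), Rarres2 (chemerin), Ism2, Wfdc1, 1500015O10Rik and Glycam1 had P34 means of 8.32 to 32.8% of the mean of the 9. Defb9, which encodes a beta-defensin, had 0, 1 and 0 counts at P34 and 0.2004 to 1.33 CPM in the other libraries.

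Genes of ion and solute transport were among the lowest at P34, with P34 means of 0 to 20.2% of the mean of the 9 over 7 genes. Best2 (ENSMUSG00000052819, chromosome 8 from 85007202 to 85014531, minus strand), which encodes bestrophin-2, an anion channel of the ciliary epithelium, had 7.1, 8.91 and 9.22 CPM (P30), 8.66, 7.16 and 2.29 (P32), 0.236, 0.0736 and 0.0673 (P34) and 3.32, 4.63 and 2.24 (P38). The P34 values of mice 8 and 9 correspond to 3 and 2 counts. Slc26a4 (ENSMUSG00000020651, chromosome 12 from 31519827 to 31559969, minus strand), which encodes the anion exchanger pendrin, had 7.61, 9.25 and 8.06 CPM (P30), 6.41, 9.66 and 4.31 (P32), 0.367, 0.245 and 0.438 (P34) and 3.78, 5.83 and 5.78 (P38). Slc13a4 (ENSMUSG00000029843, chromosome 6 from 35267957 to 35308131, minus strand), a sulfate transporter, had 16.2, 16.8 and 15.04 CPM (P30), 12.98, 15.7 and 7.32 (P32), 1.44, 0.540 and 0.909 (P34) and 9.15, 10.2 and 6.71 (P38). In Slc26a4 and Slc13a4 the lowest other library was at least 4 times the highest P34 library. Slc16a12 (ENSMUSG00000009378, chromosome 19 from 34668403 to 34747289, minus strand), a monocarboxylate transporter family member, had 9.41, 7.53 and 11.5 CPM (P30), 11.1, 10.5 and 3.52 (P32), 0.471, 0.319 and 0.438 (P34) and 10.5, 9.55 and 3.51 (P38). Slc6a13 (ENSMUSG00000030108, chromosome 6 from 121300227 to 121337733, plus strand), a GABA transporter, had 25.9, 30.1 and 23.5 CPM (P30), 24.2, 20.6 and 9.09 (P32), 5.68, 3.83 and 3.03 (P34) and 19.5, 20.4 and 12.96 (P38). Slc7a11, the cystine and glutamate exchanger, had 23.98, 16.5 and 25.2 CPM (P30), 23.4, 22.5 and 5.88 (P32), 2.46, 2.602 and 3.16 (P34) and 38.8, 32.5 and 5.18 (P38), so that P32 mouse 6 and P38 mouse 12 lay close above the P34 level while P38 mice 10 and 11 held the highest values. Kcne1, a subunit of potassium channels, had 0 counts in every P34 library but also only 2, 2 and 1 counts in P30 mouse 2, P32 mouse 6 and P38 mouse 12. Its other 6 libraries held 0.765 to 1.94 CPM. Of the 26 epithelial transport genes on the list, all tested, 8 were called lower at P34 against P30 and 0 higher (median -0.91), against 0.660% lower over all genes tested. The list holds 5 genes that the rule chose.

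Cell junction genes numbered 7. Gja1 (ENSMUSG00000050953, chromosome 10 from 56377330 to 56402513, plus strand), which encodes the gap junction protein connexin 43, had 74.5, 138 and 124 CPM (P30), 71.5, 72.1 and 19.98 (P32), 7.94, 5.77 and 7.003 (P34) and 66.2, 56 and 22.3 (P38). Cldn2, Cldn19 and Cldn1 encode claudins, the proteins that seal tight junctions. Cldn2 (ENSMUSG00000047230, chromosome X from 139800828 to 139811386, plus strand) had 9.89, 14.9 and 11.7 CPM (P30), 7.1, 11.2 and 4.88 (P32), 1.28, 0.810 and 0.505 (P34) and 8.8, 8.85 and 5.61 (P38). Cldn19 (ENSMUSG00000066058, chromosome 4 from 119255414 to 119262438, plus strand) had 8.16, 13.3 and 9.25 CPM (P30), 7.54, 6.49 and 3.93 (P32), 1.34, 1.25 and 1.11 (P34) and 3.54, 5.74 and 4.44 (P38). Cldn1 (ENSMUSG00000022512, chromosome 16 from 26356642 to 26371841, minus strand) had 7.88, 9.01 and 7.12 CPM (P30), 5.69, 7.46 and 4.31 (P32), 2.62, 1.94 and 2.15 (P34) and 7.31, 6.79 and 4.51 (P38). The P34 mean was 9.41% of the mean of the 9 for Cldn2, 17.8% for Cldn19 and 33.5% for Cldn1. Desmogleins, the adhesive cadherins of desmosomes, were counted at low levels. Dsg2 had 1.197, 2.01 and 2.38 CPM (P30), 0.907, 1.58 and 1.104 (P32), 0.105, 0.123 and 0.0337 (P34) and 1.46, 1.47 and 0.768 (P38). Dsg1a had 0.931, 1.35 and 1.96 CPM (P30), 0.938, 0.966 and 0.539 (P32), 0.0262, 0 and 0 (P34) and 0.808, 0.819 and 0.601 (P38), with 1, 0 and 0 counts at P34. Both were above 0.5 CPM in every library outside P34. Of 13 epithelial junction genes tested, 5 were called lower at P34 and 0 higher (median -1.78), against 0.660% lower over all genes tested. The 5 called were the 5 that met the rule, so this count restates their choice.

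The transcription factors of the group included a relative of Otx2 and regulators of the developing eye margin. Otx1 (ENSMUSG00000005917, chromosome 11 from 21994764 to 22002897, minus strand) had 2.59, 5.59 and 2.58 CPM (P30), 2.25, 2.87 and 0.745 (P32), 0.314, 0.245 and 0.337 (P34) and 2.07, 2.41 and 1.24 (P38), with P30 mouse 2 above all others. Zic4 (ENSMUSG00000036972, chromosome 9 from 91362413 to 91389348, plus strand) encodes a zinc finger factor and had 4.02, 5.82 and 4.26 CPM (P30), 4.41, 4.29 and 1.75 (P32), 0.419, 0.245 and 0.539 (P34) and 1.77, 4.05 and 2.91 (P38). Zic5 (ENSMUSG00000041703, chromosome 14 from 122456795 to 122465677, minus strand) had 1.13, 1.88 and 1.25 CPM (P30), 1.41, 1.23 and 0.950 (P32), 0.629, 0.515 and 0.6397 (P34) and 1.64, 1.52 and 1.04 (P38), the highest P34 share of all 79 genes (44.4% of the mean of the 9). Each of these Zic genes stands beside another Zic gene in the opposite orientation. Zic1, the neighbor of Zic4, had 17.4, 22.7 and 17.5 CPM (P30), 15.01, 14.4 and 10.3 (P32), 7.65, 5.47 and 8.42 (P34) and 14.8, 12.8 and 9.65 (P38). Zic2, the neighbor of Zic5, had 4.64, 5.904 and 4.001 CPM (P30), 3.25, 4.16 and 2.31 (P32), 1.96, 1.18 and 1.45 (P34) and 3.62, 3.96 and 2.74 (P38). Neither met the rule, as their ratios of highest P34 to lowest other value were 0.872 and 0.850, and in both genes all P34 values were nonetheless below all others. Exons of Zic4 and Zic1 overlap on opposite strands in the annotation, and the strand option of the counting is not given in the sources used here. In all, 18 of the 79 genes have exons overlapping a gene on the opposite strand, among them Penk, Fbn1, Ltbp2, Mfap4 and Notum. Exons of 3 genes (Cryga, Sned1 and Klhdc7a) overlap a gene on the same strand. Mecom (ENSMUSG00000027684, chromosome 3 from 29951296 to 30548008, minus strand), also called Evi1, had 3.11, 5.1 and 3.46 CPM (P30), 2.28, 2.79 and 1.67 (P32), 1.05, 1.03 and 0.606 (P34) and 2.62, 2.88 and 2.404 (P38). Tbx22, a T-box factor on the X chromosome, had 1.33, 1.29 and 0.965 CPM (P30), 0.907, 1.31 and 0.436 (P32), 0.0262, 0.0736 and 0 (P34) and 0.699, 1.22 and 0.735 (P38), with 1, 3 and 0 counts at P34. Msx1 and Msx2, homeodomain factors downstream of BMP signaling, had 3, 1 and 1 and 0, 1 and 1 counts at P34, and outside P34 they ranged from 0.2004 to 2.16 and from 0.07703 to 3.19 CPM. Of 24 eye field and ciliary margin factors tested, 5 were called lower at P34 against P30 and 0 higher (median -0.12), against 0.660% lower over all genes tested. The list holds 4 genes that the rule chose.

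Enzymes contributed 11 genes, several of which handle oxidants. Gpx3 (ENSMUSG00000018339, chromosome 11 from 54902453 to 54910377, plus strand), the secreted glutathione peroxidase, had 64.7, 98.7 and 86.5 CPM (P30), 62.9, 98.6 and 22.5 (P32), 9.19, 6.16 and 7.07 (P34) and 32.4, 33.7 and 27.01 (P38). Sod3 (ENSMUSG00000072941, chromosome 5 from 52363791 to 52371418, plus strand), the extracellular superoxide dismutase, had 14.03, 14.1 and 11.9 CPM (P30), 12.1, 12.9 and 4.699 (P32), 1.36, 1.06 and 1.45 (P34) and 6.81, 8.24 and 6.75 (P38). Mgst1 (ENSMUSG00000008540, chromosome 6 from 138140316 to 138156755, plus strand), a microsomal glutathione transferase, had 13.4, 21.5 and 17.1 CPM (P30), 19.5, 12.5 and 4.699 (P32), 3.06, 3.04 and 3.23 (P34) and 10.4, 7.75 and 6.01 (P38). All 3 P38 values of Gpx3, Sod3 and Mgst1 lay below the P30 values. Of 23 antioxidant and detoxification genes tested, 4 were called lower at P34 and 0 higher (median -0.77), on a list that holds the 3 chosen genes just given, against 0.660% lower over all genes tested. Dio3 (ENSMUSG00000075707, chromosome 12 from 110279068 to 110281097, plus strand), the deiodinase that inactivates thyroid hormone, had 4.12, 5.82 and 4.43 CPM (P30), 6.04, 4.75 and 2.46 (P32), 0.498, 0.319 and 0.606 (P34) and 2.73, 3.46 and 2.14 (P38). Aldh1a3 (ENSMUSG00000015134, chromosome 7 from 66390890 to 66427517, minus strand), which makes retinoic acid from retinaldehyde, had 1.796, 1.57 and 2.33 CPM (P30), 1.41, 1.07 and 1.001 (P32), 0.367, 0.0982 and 0.438 (P34) and 1.48, 1.59 and 0.835 (P38). Of 16 retinoic acid and thyroid hormone genes tested these were the 2 called lower at P34, which restates their choice by the rule, and 0 were higher (0.660% lower over all genes tested). Ch25h, which makes 25-hydroxycholesterol, had 1, 1 and 0 counts at P34 and 0.1797 to 1.22 CPM in the other libraries. Ces1d, a carboxylesterase, had 3.69, 2.62 and 2.36 CPM (P30), 3.28, 3.89 and 1.23 (P32), 0.0524, 0.147 and 0.303 (P34) and 1.64, 1.66 and 1.37 (P38). Gstm2, Sult1a1, Galnt12 and the membrane protease Tmprss11e had P34 means of 3.17 to 27.6% of the mean of the 9. Ces1d and Gstm2 belong to families of similar genes, and reads with more than 1 position were not counted, so their levels are uncertain.

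The endocytic receptors Mrc1 (the mannose receptor), Mrc2 (which takes up collagen) and Colec12 (a scavenger receptor) had P34 means of 19.7 to 24.6% of the mean of the 9 and spreads of 2.87 to 3.27-fold over the 9. A pair of gamma crystallins, structural proteins of the lens fiber, met the rule with very uneven values. Crygf (ENSMUSG00000025945, chromosome 1 from 65926520 to 65928307, plus strand) had 8.696, 6.58 and 206 CPM (P30), 139, 268 and 5.42 (P32), 0.183, 2.41 and 2.42 (P34) and 8.08, 4.28 and 18.5 (P38). Cryga (ENSMUSG00000044429, chromosome 1 from 65100389 to 65103373, minus strand) had 5.603, 3.301 and 129 CPM (P30), 131, 131 and 4.29 (P32), 0.288, 1.79 and 2.19 (P34) and 3.82, 4.78 and 10.6 (P38). Only P30 mouse 3 and P32 mice 4 and 5 stood above 100 CPM in both genes, and the gamma crystallins are similar in sequence, so that reads may be lost between them. The remaining 11 genes, among them Fam129a, Rhoj (a small GTPase), Emp3, Zfp185, Chmp4c, Cdca7, Rapsn (rapsyn, which clusters acetylcholine receptors) and Klhdc7a, had P34 means of 10.9 to 36.8% of the mean of the 9.

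**Figure D3:**
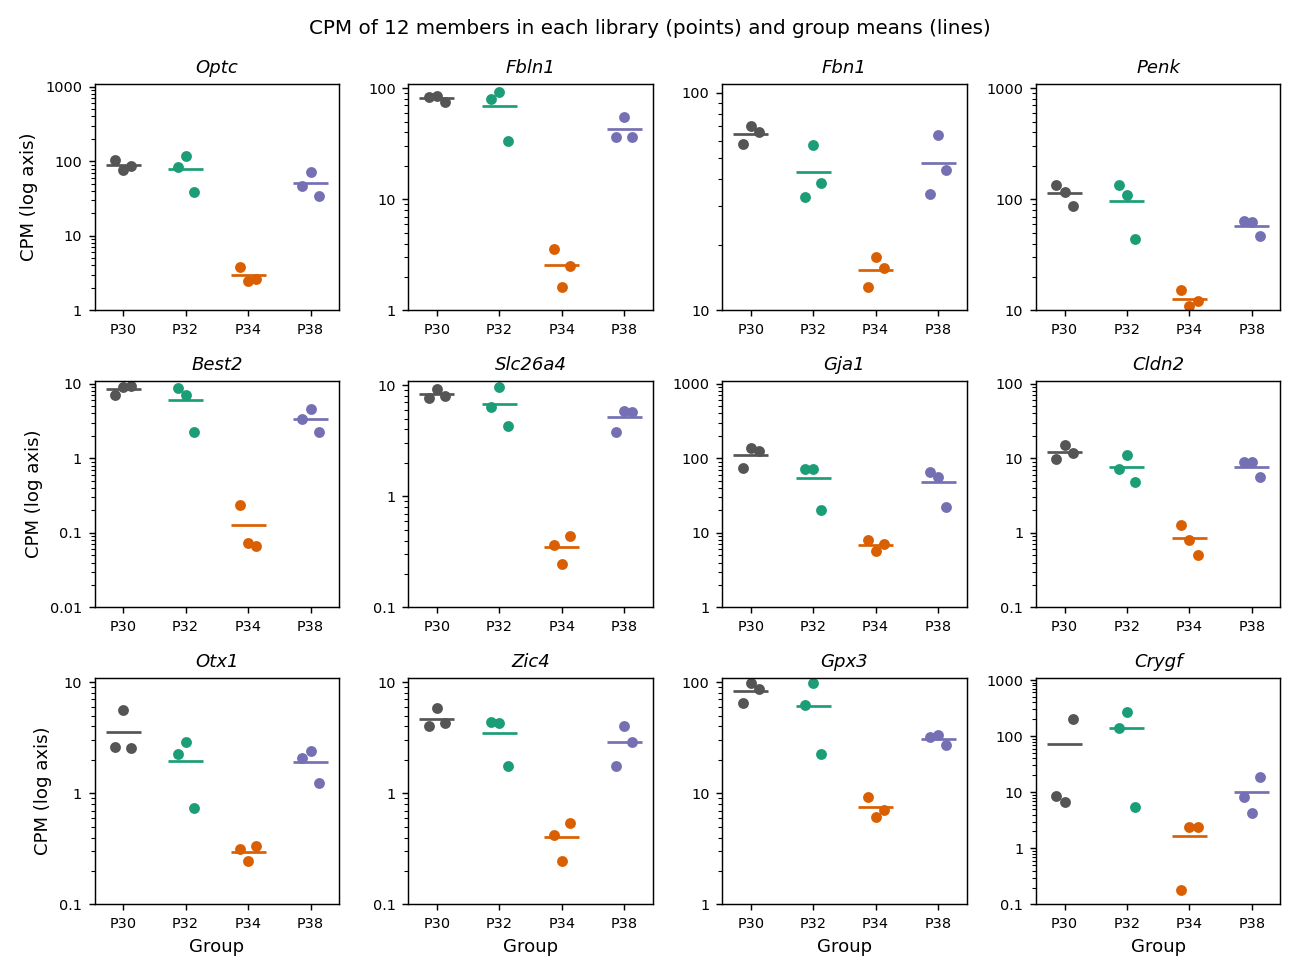
CPM (log axis) of 12 of the genes in each library, with 1 point per mouse and a line at the mean of each group of 3. All P34 points lie below all others by the choice of genes, and Crygf is high only in P30 mouse 3 (206 CPM) and P32 mice 4 and 5 (139 and 268 CPM).

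Levels can be set between genes only per length. Per kilobase of exon, the mean CPM over the 9 libraries was highest for Crygf (118 CPM per kb), Cryga (64.4), Penk (54.3), Gpx3 (32.3) and Optc (28.5), and the median over the 79 genes was 1.78. The means of the crystallins rested on P30 mouse 3 and P32 mice 4 and 5. The genes lay on 20 chromosomes. Only 3 pairs stood within 200 kb of each other, namely Optc and Fmod, Crocc2 and Sned1 (4769 bases apart), and Ch25h and Slc16a12 (193239 bases apart). The median exonic length was 3739 bases, against 4451 bases for all protein-coding genes tested.

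The promoters were searched for the sequence TAATCC on either strand, the core of the site bound by OTX2 and its relative CRX. RefSeq promoters of 250 bases before to 50 bases after the start (GRCm38.p6) were at hand for 54 of the 79 genes by symbol, and 4 of them (7.41%) held it, against 8.14% of the 27018 genes in the table. The windows below show those 4 matches with up to 50 bases on each side, read 5′ to 3′ on the strand of the gene, with the match in capitals. They serve to place the letters that were counted, in the promoters of 2 latent TGF-beta binding proteins, a transporter and Crocc2. The match starts at base -62 from the start of Ltbp1, -144 of Ltbp2, -67 of Slc6a13 and -210 of Crocc2. The RefSeq start of Ltbp1 lies inside the gene as Ensembl draws it.
Ltbp1 (chr17:75178669-75178774, plus strand): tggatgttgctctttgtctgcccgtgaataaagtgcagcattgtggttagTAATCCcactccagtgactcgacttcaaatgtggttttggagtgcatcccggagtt
Ltbp2 (chr12:84876580-84876685, minus strand): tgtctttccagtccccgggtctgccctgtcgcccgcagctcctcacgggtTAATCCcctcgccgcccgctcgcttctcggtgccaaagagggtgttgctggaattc
Slc6a13 (chr6:121300171-121300276, plus strand): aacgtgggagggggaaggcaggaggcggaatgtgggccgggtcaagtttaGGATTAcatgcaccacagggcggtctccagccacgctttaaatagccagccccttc
Crocc2 (chr1:93168173-93168268, plus strand): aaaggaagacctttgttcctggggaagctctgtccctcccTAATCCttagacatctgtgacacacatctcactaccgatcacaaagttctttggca
The letters GGATTA in Slc6a13 are the same motif on the other strand. A match is a description of these windows and not a measured binding site.

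P30, P32 and P38 were also compared with each other. P32 and P38 were each compared with P30 and with each other by edgeR's quasi-likelihood test over all 18628 genes. The rule set its limit by the lowest of these 9 libraries, so a gene as low at P32 or P38 as at P34 could not be among the 79, and what follows describes genes chosen in part by these values and is no independent support. The first 2 comparisons share the P30 controls, and the rule's floor of 0.5 CPM also used the P30 values. At P32 against P30, 0 of the 79 genes passed an adjusted p of 0.05 in either direction, as did 0 of all genes tested (0% lower, 0% higher). The lowest adjusted p of a member was 0.592. At an unadjusted p of 0.05 or less with the same minimum fold change, 17 of the 79 genes (21.5%) were lower and 0 higher, against 1.77% lower and 1.13% higher among all genes tested. The median log2 fold change was -0.44 for the 79 genes and -0.01 for all genes tested, and 66 of the 79 were negative, against 51.5% of all genes. This median rested partly on P32 mouse 6, without which it was -0.13, with 10 genes lower and 1 higher at the unadjusted p. Without P32 mouse 5 it was -0.66 with 30 lower. For fits without a mouse the share over all genes is not given here, so nothing is read from their counts. In 12 of the 79 genes all P32 values lay below all P30 values, against 3.34% of all genes tested, and in 0 they lay above, against 5.72%.

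At P38 against P30, 0 of the 79 genes passed the adjusted p in either direction, as did 0 of all genes tested (0% lower, 0% higher), and the lowest adjusted p of a member was 0.528. At the unadjusted p, 22 of the 79 genes (27.8%) were lower and 0 higher, against 2.66% lower and 0.805% higher among all genes tested. The median log2 fold change was -0.52, against -0.01 for all genes, and 71 of the 79 were negative, against 51.8% of all genes. Without P38 mouse 12 the median was -0.40 and 10 genes were lower at the unadjusted p. All P38 values lay below all P30 values in 37 of the 79 genes, against 11.1% of all genes tested, and above in 0, against 3.77%. Without P30 mouse 1, 2 of the 79 genes at P32 (Angptl2 and Fam129a) and 1 at P38 (Angptl2) were called lower than P30 at the adjusted p. DESeq2's test on all the counts called 2 of the 79 genes lower at P32 (Angptl2 and Fam129a), 4 at P38 (among them Angptl2, Cldn19 and Edn3) and 0 at P38 against P32. The share over all genes is not given here for that test or for fits without a mouse, so nothing is read from their counts.

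Individual genes differed in how far their level at P38 stood from that at P30. Angptl2 had the lowest p of the 79 genes at P38 against P30, with a log2 fold change of -1.73 (standard error 0.38 and adjusted p = 0.528), and at P32 it was -1.96 (standard error 0.39 and adjusted p = 0.592). Fam129a had 32.4, 70.4 and 52.3 CPM (P30), 19.4, 24.9 and 13.5 (P32), 8.09, 6.97 and 8.55 (P34) and 26.5, 32.7 and 21.5 (P38), with log2 fold changes of -1.46 (standard error 0.28 and adjusted p = 0.592) at P32 and -0.86 (standard error 0.28 and adjusted p = 0.847) at P38. Every P32 value of both genes lay below every P30 value, and none of these adjusted p passed. Gpx3 had a log2 fold change of -1.34 (standard error 0.40 and adjusted p = 0.847) at P38 and Gja1 one of -1.12 (standard error 0.48 and adjusted p = 0.847). At the other end, Ltbp2 stood at 21.8 ± 9.46 CPM (SD, n = 3) at P38 and 25.9 ± 2.501 CPM at P30, a log2 fold change of -0.18 (standard error 0.32). Col1a2 differed by -0.19 (standard error 0.28) and Zic5 by 0.08 (standard error 0.28) between the same ages. Those 3 differences were smaller than their standard errors. Means at P38 were 13.9 to 158% of the P30 means over the 79 genes (median 66.3%), and at P32 26.5 to 195% (median 75.1%).

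**Figure D4:**
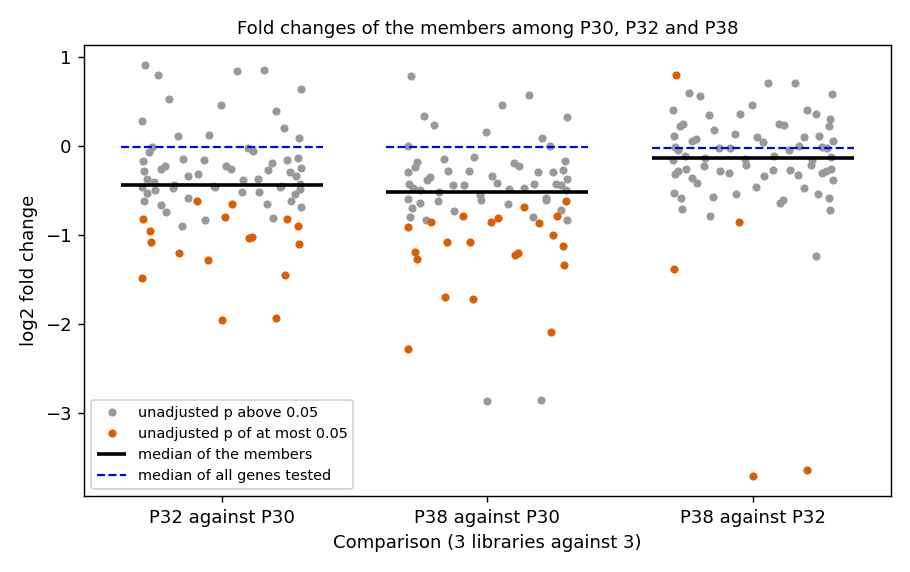
Log2 fold changes of the 79 genes (points) in the 3 comparisons among P30, P32 and P38, with their median (black line) and that of all genes tested (dashed line), and with unadjusted p of at most 0.05 in orange. The medians of the genes are -0.44, -0.52 and -0.13, and no point passed an adjusted p of 0.05.

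With all mice, no difference between P38 and P32 passed the test in these genes. At P38 against P32, 0 of the 79 genes and 0 of all genes tested passed the adjusted p in either direction (0% lower, 0% higher). At the unadjusted p, 4 (Cryga, Crygf, Galnt12 and Gpx3) were lower and 1 (Tmprss11e) was higher, against 6.23% lower and 5.68% higher among all genes tested. The median log2 fold change was -0.13, against -0.02 for all genes, and it turned positive without P32 mouse 4 (0.06), P32 mouse 5 (0.10) or P38 mouse 12 (0.06). The P38 values lay below all P32 values in 0 of the 79 genes, against 24.0% of all genes tested, and above in 0, against 5.75%. This comparison turned on P32 mouse 6, without which 6 of the genes (Cryga, Fbln1, Galnt12, Gpx3, Penk and Sod3) were called lower at the adjusted p. Without it 16 were lower at the unadjusted p and 0 higher, while without P32 mouse 5 it was 0 lower and 7 higher. The shares over all genes in these fits without a mouse are not given here.

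Marker lists of other tissues were summed in each library. Over the 21 marker lists, the ciliary epithelium list, which holds the chosen genes Best2, Optc and Otx1 among its 8, was the only 1 whose summed level in the P34 mice lay below that of all 9 other mice. With the 3 chosen genes left out, Zic1, Zic2, Mfrp, Col9a1 and Aqp1 summed to 167 to 193 CPM at P34, 274 to 315 at P30, 233 to 318 at P32 and 216 to 287 at P38. Col9a1, a collagen of the vitreous, had 91.3, 82.8 and 82.7 CPM (P30), 88.6, 97.5 and 69.8 (P32), 31.3, 38.3 and 39.6 (P34) and 43.8, 61.5 and 57.2 (P38), with all P34 values below all others. Aqp1, a water channel, had 197, 164 and 151 CPM (P30), 125, 197 and 177 (P32), 122, 128 and 141 (P34) and 219, 176 and 144 (P38), and its P34 range overlapped that at P32. Mfrp, a membrane frizzled-related protein, had 4.19, 17.8 and 18.7 CPM (P30), 1.53, 5.21 and 2.31 (P32), 4.4, 3.07 and 2.66 (P34) and 6.18, 6.06 and 2.805 (P38), and its P34 values lay among those of the other libraries. The sum was carried by Aqp1 and Col9a1. No marker of this list was at 0 in all libraries, and its part in the results was not tested.

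The lens list summed to 558 to 37677 CPM at P30, 779.9 to 47717 at P32, 265 to 766 at P34 and 5309 to 12306 at P38. It stood at 558 CPM in P30 mouse 2 and 779.9 CPM in P32 mouse 6, so the P34 mice were not alone at the low end. None of its 8 genes met the rule, although Lim2 lay just outside. The fibroblast list, which holds the chosen genes Col1a2 and Ogn among its 7, summed without them to 22.2 to 38.8 CPM at P34, 40.5 to 65.5 at P30, 22 to 42.6 at P32 and 31.7 to 58.9 at P38. Smooth muscle markers summed to 31.1 to 190.0 CPM at P30, 11.5 to 50.8 at P32, 9.35 to 13.2 at P34 and 16.4 to 20.5 at P38, and genes of melanin synthesis to 125 to 867, 32.04 to 122, 40.3 to 53.2 and 30.5 to 120.3 CPM. Both lists were thus highest in P30 mice 2 and 3. P32 mouse 6 lay among the P34 mice or below them in both, while the P38 mice lay above the P34 mice in the first list and on both sides of them in the second. RPE markers summed to 131 to 203 CPM at P34 and 87.6 to 234 at P30, Müller glia markers to 4058 to 4499 and 3953 to 4670.2, and endothelial markers to 80.9 to 90.7 and 83.8 to 85.6, each with overlapping ranges. The part of these other tissues in the low levels at P34 was not tested.

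**Figure D5:**
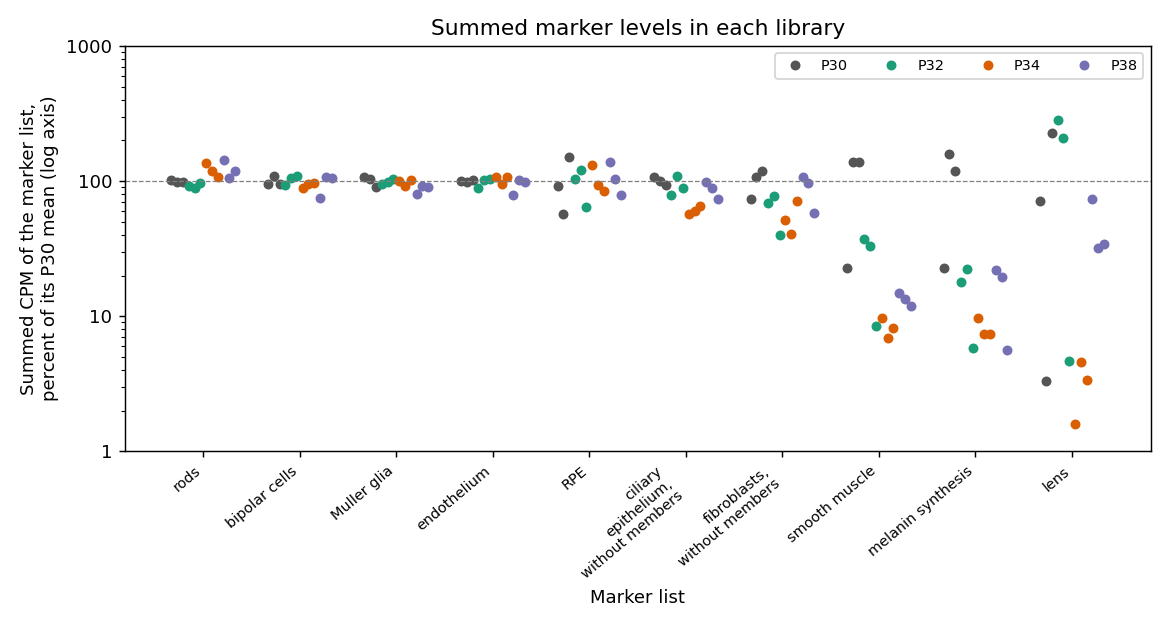
Summed CPM of 10 marker lists in each library, as a percentage of the list's P30 mean, on a log axis, with 1 point per mouse colored by group. The ciliary epithelium list without the chosen genes is lowest in the 3 P34 mice (167 to 193 CPM, against 216 to 318 CPM elsewhere), and the lens list is low in P34 mice, P30 mouse 2 and P32 mouse 6.

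Genes of the remaining lists held few or none of the chosen genes. Of 25 BMP and TGF-beta signaling genes tested, 2 were called lower at P34 against P30 and 0 higher (median log2 fold change -0.38), of 11 Hedgehog genes 0 in either direction (median -0.57) and of 12 complement genes 1 lower and 0 higher (median -0.16), against 0.660% lower over all genes tested. None of these genes met the rule. Of 9 immediate early genes tested, 0 were called in either direction, and their median was 0.43. In all 15 pathway lists, 0 genes were called higher at P34, as were 0% of all genes tested.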

How the data were processed

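RNA from whole retinas was sequenced as 50 bp single reads from stranded mRNA libraries, with 3 mice per age. The authors mapped the reads to mm10 with STAR 2.5.3a, counted uniquely placed reads with HTSeq 0.6.1p1 (union mode) over genes of Ensembl 93, and deposited these counts without normalization. The strand option is not given in the sources used here. CPM for the rule used the total on genes. Fold changes came from edgeR 4.0.16 in R 4.3.3 (TMM scaling, its filter on low counts, 1 fit of all 12 libraries with 1 mean per age, quasi-likelihood test, Benjamini-Hochberg adjustment over 18628 genes), which was tested on simulated counts. Standard errors were derived from the fold change and its F statistic. Symbols and positions came from GENCODE M21, which named 99.9% of genes. The 50 genes of the naming rule were the 20 with the lowest ratio, the 10 with the highest mean, the 5 nearest the limit inside it and those on a list. About 30 of them are given in full. The 5 genes nearest the limit outside it are named besides, and other members may be named. Members and lists were chosen with earlier results of these data known. Alternatives were DESeq2 1.42.0, other scalings, filters, limits and leaving out each mouse. Of the 79 genes, 2 are counted but not reported here by name. Reads over the deleted exon were not analysed here. A count floor covers counting error only.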

Additional observations from a re-analysis of the deposited data

How the results depend on the processing

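The number of genes that met the rule was 79. It was 74 with TMM scaling (73 shared), 59 and 118 with a ratio of at most 0.6 and 0.8, 72 and 94 with a P30 floor of 1 and 0.1 CPM, 80 with genes of any biotype and 83 with 0 on both sides allowed. Leaving out 1 mouse at a time gave 78 to 110 genes, the highest count without P32 mouse 6. Another group was also put in the place of P34, with the floor on the P30 mean kept, a choice made after seeing the data. The number was then 0 low and 2 high at P30, 1 low and 1 high at P32, and 0 low and 0 high at P38.

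Calls at the adjusted p were 0 in all 3 comparisons. Without the filter on low counts they were 2 at P32 and 1 at P38 against P30, and with DESeq2's test 2 and 4, all lower. Leaving out 1 mouse gave 0 to 2 at P32 against P30 and 0 to 1 at P38 against P30 (in both the highest count came without P30 mouse 1), and 0 to 6 at P38 against P32 (the highest without P32 mouse 6). DESeq2's size factors and fits of only the ages compared gave 0 in each. For settings other than the main fit, the share of all genes called is not given here. When 1 mouse was left out, calls at the unadjusted p were 11 to 30 at P32 against P30 (main 17), lowest without P32 mouse 6 and highest without mouse 5, and 10 to 27 at P38 against P30 (main 22), lowest without P38 mouse 12 and highest without P30 mouse 1. At P38 against P32 they were 0 to 16 (main 5), lowest without P38 mouse 11, 1 without P38 mouse 10, 2 without P32 mouse 4 and highest without P32 mouse 6. With all mice they were 9 there without the filter and 3 in a fit of only these ages, and at P38 against P30 30 and 32 under the same settings. The median over the genes, on the log2 scale, was -0.66 to -0.13 at P32 and -0.65 to -0.40 at P38 against P30 when 1 mouse was left out, and -0.45 to 0.10 at P38 against P32, where it was positive without P32 mouse 4, P32 mouse 5 or P38 mouse 12. The causes were not tested. The marker lists with the P34 mice lowest numbered 1 with TMM scaling too. The shorter motif TAATC was in 22.2% of promoters, by its length more often than TAATCC, and in 24.6% of all genes of the table. The P34 mean over that of the 9 moved by less than 0.2 on the log2 scale with TMM scaling for the 50 genes named by rule. No paired analysis was possible because the groups share no replicate numbers. At 3 counts or fewer in each P34 library, 9 genes allow no firm fold.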

Other observations

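Outside the protein-coding genes, 1 long noncoding RNA met the same rule. Dio3os, transcribed opposite Dio3, had 3.31, 4.72 and 3.04 CPM (P30), 6.07, 5.61 and 3.06 (P32), 1.18, 0.810 and 1.01 (P34) and 1.77, 3.30 and 2.404 (P38). The rule required this gene and Dio3 each to be lowest in the same 3 mice, so nothing is read from that.

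The genes that met the rule at another age were few and chosen after their values were seen. Irak3, an inhibitor of Toll-like receptor signaling, was low only at P32, with 0.188 to 0.231 CPM there and 0.349 to 0.681 CPM elsewhere. Klkb1, plasma prekallikrein, was high only at P32, with 7.32 to 12.0 CPM there and 2.57 to 4.81 CPM elsewhere. Mlph, which carries melanosomes, was high only at P30, with 3.43, 11.5 and 14.4 CPM in the control mice and at most 2.31 CPM in the cKO mice. Matn3, a cartilage matrix protein, had 0.366, 8.10 and 3.63 CPM at P30 and at most 0.218 CPM in the cKO mice.

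Of the 4 genes with 0 on both sides of the rule, Zfp970 and Gm14403 were at 0 in the same mice, except P30 mouse 3, where Zfp970 had 1 count. Zfp970 had 103, 108 and 1 counts in P30 mice 1 to 3, 0, 0 and 80 at P32, 0 in each P34 mouse, and 71, 77 and 0 at P38. Gm14403 had 54, 45 and 0 counts at P30, 0, 0 and 57 at P32, 0 in each P34 mouse, and 72, 71 and 0 at P38. Chrng, a subunit of the muscle acetylcholine receptor, had 0 counts in P32 mouse 6 and in each P34 mouse and 2 to 74 in the others.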
